A study of Bos taurus with 56 samples.

Results

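The isthmus and the ampulla of the oviduct were compared on the side contralateral to the corpus luteum (CL), away from the ovary that had ovulated, in 14 Holstein females. Members were the libraries whose column names carry Isthmus_Contra or Ampulla_Contra, 28 of the 56 libraries of the series, 14 from each region. Each isthmus library was paired with the ampulla library of the same animal by the tag that ends the column name. The animals were 5 nulliparous heifers, 5 post-partum non-lactating cows that were never milked, and 4 post-partum lactating cows. All had their estrus synchronized and their oviducts collected on Day 3 after estrus, about 60 days after calving in the cows. Heifers, non-lactating cows and lactating cows were pooled, and the metabolic groups were then set side by side. The scraped mucosa is enriched in epithelium but is a mixture of cells, and in such bulk samples fewer cells of a type and less RNA per cell cannot be told apart.

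The oviduct is a tube whose segments do different work. The ampulla has tall mucosal folds with many ciliated cells and is where the oocyte meets the sperm, and the isthmus is narrow and muscular, holds sperm before ovulation and harbours the embryo in its first cleavages. In both, the epithelium is built of ciliated cells, which move fluid and the oocyte, and secretory cells, which make the luminal fluid.

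The counts on genes ranged over 1901454 to 5274847 in the isthmus libraries and 3141770 to 6736441 in the ampulla libraries, and levels are given as CPM, which are counts scaled to a common library size, after TMM normalization. The first principal component of log2 CPM held 46.3% of the variance and set all 14 isthmus libraries (11.9 to 62.9) apart from all 14 ampulla libraries (-45.9 to -27.5). The ampulla library of heifer E stood apart on the second component, at 79.5 where the other ampulla libraries lay at or below 20. The interferon and cholesterol lists are therefore also given without heifer E, with both libraries of this animal left out. The isthmus libraries of heifer B, heifer A and non-lactating cow B were the shallowest, with 1901454 to 2793889 counts.

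**Figure D1:**
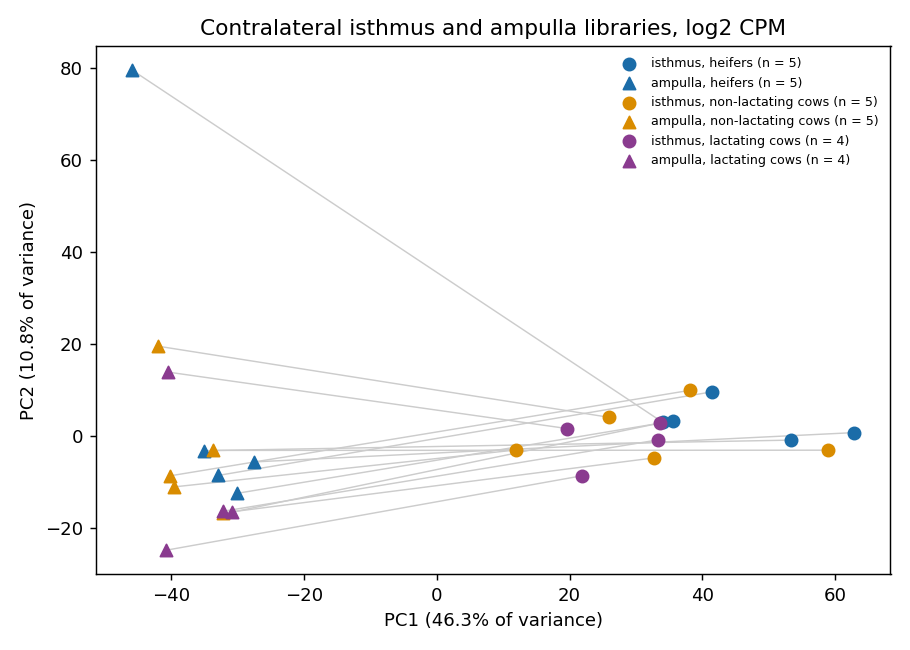
Principal components of log2 CPM of the 28 contralateral libraries, with PC1 on the x axis and PC2 on the y axis in component units, circles for isthmus, triangles for ampulla, colours for metabolic groups and grey lines between the libraries of an animal. All isthmus libraries lie at or above 11.9 and all ampulla libraries at or below -27.5 on PC1, and the heifer E ampulla library lies alone at the top.

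The regions differed across much of the transcriptome, in both directions. Of 13794 genes with enough counts to test, 6467 (46.9%) were called at an adjusted p under 0.05, 3327 (24.1%) of them higher in the isthmus and 3140 (22.8%) higher in the ampulla, and the median log2 fold change of all genes tested was 0.02. The counts of each gene list are to be read against these shares, and no list was tested against other genes. Adjusted p-values are from edgeR's quasi-likelihood test with the animal as a block and Benjamini-Hochberg adjustment over all genes tested. Fold changes are isthmus minus ampulla on the log2 scale. Errors are standard errors derived from that test, the size of the log2 fold change over the square root of its F statistic. They rest on the fit of 14 pairs unless said otherwise, and are not the spread of the paired differences. Large differences were more often on the isthmus side. Called genes with a fold above 2 numbered 1016 (7.37%) in favour of the isthmus and 679 (4.92%) in favour of the ampulla, and with a fold above 8 they numbered 192 (1.39%) and 60 (0.435%). In 395 genes (2.86%) every isthmus library lay above every ampulla library, and in 198 (1.44%) every ampulla library lay above every isthmus library, 593 (4.30%) in all. The paired difference had one sign in all 14 animals for 1217 genes (8.82%) higher in the isthmus and 973 (7.05%) higher in the ampulla.

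The 15 leading genes of the isthmus, those of largest change among called genes of one sign in all 14 animals and at least 5 CPM on average, included a peptide hormone, a sperm-binding protein, channels and matrix proteins. GRP, which encodes gastrin-releasing peptide, ranged over 471 to 3221 CPM (median 1439) in the isthmus and 0 to 5.1 CPM (median 0.727) in the ampulla, a log2 fold change of 10.63 ± 0.31 (adjusted p = 2.26e-15). Every isthmus library lay far above every ampulla library. RNASE1, a secreted ribonuclease, ranged over 8.71 to 35.8 CPM (median 16.7) in the isthmus and had 2 counts in all 14 ampulla libraries together, a rate ratio of 668 (95% exact counting interval 184 to 5519). CA10, a carbonic anhydrase-related protein without enzyme activity, ranged over 2.71 to 20.7 CPM (median 8.47) in the isthmus and had no count in the ampulla, so it was at least 219-fold higher at a floor of 3 counts over the group. BSP3, of the binder of sperm family, likewise had no ampulla count and 1.3 to 16.9 CPM (median 8.39) in the isthmus, at least 198-fold higher. BSP3 and LYZ1 belong to multigene families, and reads that map to several places were not counted, so their levels are uncertain.

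PDZK1, a scaffold of membrane transporters, showed 26.7 to 486 CPM (median 89.3) in the isthmus and 0 to 2.22 CPM (median 0.330) in the ampulla, a log2 fold change of 8.08 ± 0.19 (adjusted p = 6.15e-17), with no overlap between regions. GRIN2A, a subunit of the NMDA glutamate receptor, showed 24.6 to 178 CPM (median 74.5) in the isthmus and 0 to 1.21 CPM (median 0.173) in the ampulla, a log2 fold change of 7.87 ± 0.32 (adjusted p = 1.48e-13). Both were thus expressed in every isthmus library and close to absent from the ampulla. DACT2, a modulator of WNT and TGF-beta signalling, had 1 count in the ampulla and 1.05 to 17.6 CPM (median 10.7) in the isthmus, a rate ratio of 677 (95% exact counting interval 121 to 26796). TMEM45B, a membrane protein, had no ampulla count and 1.57 to 11 CPM (median 5.02) in the isthmus, at least 154-fold higher. FBN2, a fibrillin of elastic microfibrils, showed 20.4 to 253 CPM (median 94.2) in the isthmus and 0 to 1.62 CPM (median 0.569) in the ampulla, a log2 fold change of 7.45 ± 0.30 (adjusted p = 1.29e-13). None of the 3 overlapped between regions. The remaining leading genes of the isthmus were KCNH7, a potassium channel, GPM6B, a membrane glycoprotein, SLC13A5, a citrate transporter, LYZ1, a lysozyme, and THBS1, the matrix protein thrombospondin 1, with log2 fold changes of 7.38 ± 0.60, 7.23 ± 0.31, 7.20 ± 0.42, 7.16 ± 0.32 and 7.10 ± 0.32, and none overlapped.

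Cyclin B1, CCNB1, which drives entry into mitosis, ranged over 102 to 659.7 CPM (median 367) in the isthmus and 0 to 5.86 CPM (median 2.31) in the ampulla, a log2 fold change of 7.26 ± 0.24 (adjusted p = 1.53e-14). Other cell cycle genes differed from it in direction or were not called. Of 20 tested proliferation genes CCNB1 was the single member called higher in the isthmus, 5 were called higher in the ampulla, a share near the 22.8% of all genes, and 14 were not called (median log2 fold change -0.30). CDK1, the kinase partner of cyclin B1, had a median of 4.87 CPM in the isthmus and 7.36 CPM in the ampulla (adjusted p = 0.248), and CCNA2, cyclin A2, 7.04 and 6.08 CPM (adjusted p = 0.357). MKI67, a marker of cycling cells, was lower in the isthmus, with 2.71 to 35.4 CPM (median 7.59) in the isthmus and 4.54 to 85.2 CPM (median 12) in the ampulla, a log2 fold change of -0.84 ± 0.25 (adjusted p = 0.00807), and TPX2, a spindle factor, was lower too (-0.91 ± 0.22). The ranges of MKI67 and TPX2 overlapped between regions, and the MKI67 call was lost without the animal block (adjusted p = 0.0639, and 0.000365 to 0.0639 over the alternatives other than a minimum fold).

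**Figure D2:**
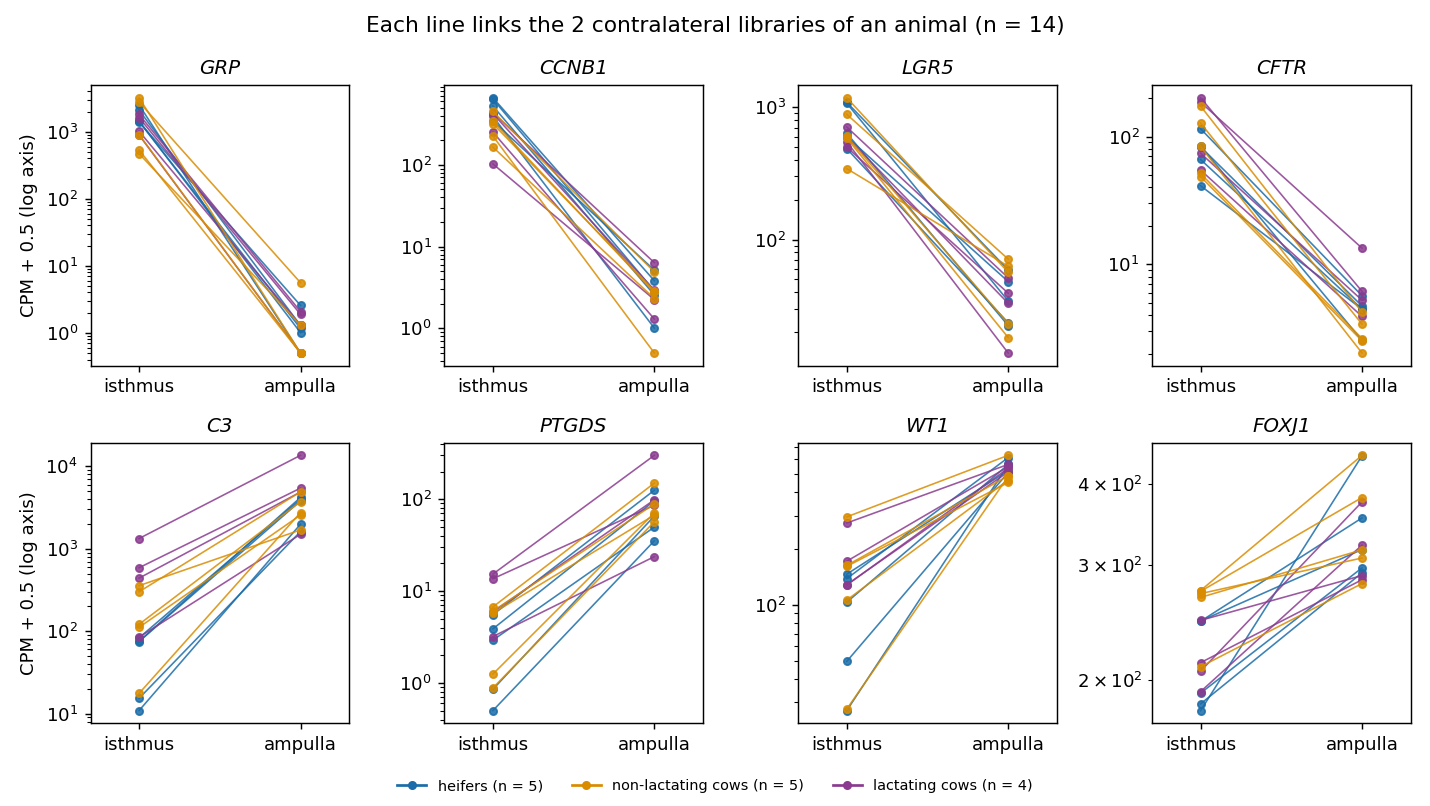
CPM plus 0.5 on a log axis in the isthmus and ampulla of each animal (lines, n = 14, coloured by metabolic group) for 4 genes higher in the isthmus (upper row) and 4 higher in the ampulla (lower row). Every line falls in the upper row and rises in the lower row, by far more for GRP than for FOXJ1. GRP, CCNB1, C3 and PTGDS were chosen for 1 sign in all 14 animals, which fixes the direction of their lines.

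The 15 leading genes of the ampulla, chosen in the same way, included a hedgehog carrier, a transcription factor, complement C3 and prostaglandin enzymes. SCUBE2, a secreted protein that helps release hedgehog ligands, ranged over 0 to 1.91 CPM (median 0.363) in the isthmus and 26.4 to 60.3 CPM (median 41.6) in the ampulla, a log2 fold change of -6.33 ± 0.24 (adjusted p = 9.65e-14). GATA6, a zinc finger transcription factor, ranged over 0 to 7.85 CPM (median 0.296) in the isthmus and 30.4 to 80.5 CPM (median 50.6) in the ampulla, a log2 fold change of -5.93 ± 0.39 (adjusted p = 1.62e-10). No isthmus library reached the lowest ampulla library for either gene. ENPEP, the aminopeptidase that cleaves angiotensin II, showed 0 to 0.523 CPM (median 0) in the isthmus and 3.1 to 11.4 CPM (median 7.03) in the ampulla (-5.88 ± 0.41, adjusted p = 4.47e-10), and PROS1, the anticoagulant cofactor protein S, 0 to 4.05 CPM (median 0.404) in the isthmus and 4.91 to 40.3 CPM (median 17.1) in the ampulla (-5.10 ± 0.34, adjusted p = 2.59e-10). Complement C3, the central protein of the complement cascade, ranged over 10.3 to 1331 CPM (median 97.3) in the isthmus and 1499.7 to 13635 CPM (median 3776) in the ampulla, a log2 fold change of -4.83 ± 0.41 (adjusted p = 6.19e-09). As the choice of leading genes required, C3 was lower in the isthmus of each of the 14 animals. CBLN4 (a cerebellin), KCNS3 (a potassium channel subunit), DIRAS3 (a small GTPase), FUT1 (a fucosyltransferase) and FMO2 (a flavin monooxygenase), had log2 fold changes of -4.78 ± 0.48, -4.59 ± 0.41, -4.56 ± 0.42, -4.51 ± 0.35 and -4.35 ± 0.37, with no overlap. ADAMTS12, a secreted metalloprotease, THY1, a surface glycoprotein of stromal and other cells, and PIGR, the receptor that carries immunoglobulins across epithelium, fell by 4.74 ± 0.38, 4.66 ± 0.24 and 4.32 ± 0.30 on the log2 scale from ampulla to isthmus. Their choice required 1 sign in all 14 animals, but their ranges across animals overlapped.

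Among the genes that took the largest shares of reads, differences were small. CLU (clusterin, a secreted chaperone), LRBA, SYNE2 (which links the nucleus to the cytoskeleton) and XIST (the RNA of X inactivation) were higher in the isthmus by 0.72 ± 0.14, 0.71 ± 0.09, 0.61 ± 0.10 and 0.40 ± 0.11. RN7SL1 (the RNA of the signal recognition particle), EEF1A1 (a translation factor) and the mucin MUC16 fell by 0.70 ± 0.19, 0.31 ± 0.10 and 0.92 ± 0.23 on the log2 scale. All of these had overlapping ranges. C3, more abundant on average in the ampulla than CLU, LRBA, SYNE2 and XIST, differed by far more, as given above.

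Both regions carried the markers of oviduct epithelium, and ciliated cell genes were higher in the ampulla nearly throughout. Of 27 tested ciliated cell markers none was called higher in the isthmus and 25 were called higher in the ampulla, against 24.1% and 22.8% of all genes. Their median log2 fold change was -0.56 against 0.02 for all genes. The differences were modest. FOXJ1, the master regulator of motile cilia, showed 179 to 274 CPM (median 229) in the isthmus and 281 to 442 CPM (median 316) in the ampulla, a log2 fold change of -0.56 ± 0.08 (adjusted p = 8.73e-06), without overlap. PIFO and ROPN1L, proteins of cilia, fell by 1.04 ± 0.09 and 0.86 ± 0.08 without overlap, while the axonemal genes DNAI1, RSPH1 and HYDIN fell by 0.62 ± 0.08, 0.78 ± 0.07 and 0.28 ± 0.07 with overlapping ranges. The summed level of the list was 9577 to 13453 CPM in the isthmus and 12787 to 19073 CPM in the ampulla. The 2 uncalled members were TP73 (adjusted p = 0.25) and CCDC39 (adjusted p = 0.141), of which CCDC39 was called without heifer E (1.32e-05).

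Of 16 tested secretory cell markers 8 were higher in the isthmus, 3 were higher in the ampulla and 5 were not called (median log2 fold change 0.53). The shares of all genes were 24.1% and 22.8%. The largest falls of this list were C3 (-4.83) and PIGR (-4.32), both given above among the leading genes of the ampulla. BPIFB1, a secreted antibacterial protein, showed 18.8 to 194 CPM (median 93.6) in the isthmus and 0 to 14.6 CPM (median 2.8) in the ampulla, a log2 fold change of 4.68 ± 0.37 (adjusted p = 2.55e-09), and MSX1, a homeobox factor of Müllerian epithelium, 23.2 to 89.7 CPM (median 49.9) in the isthmus and 0.322 to 8.34 CPM (median 2.72) in the ampulla, a log2 fold change of 4.17 ± 0.28 (adjusted p = 2.06e-10). Neither overlapped between regions. EPCAM, an adhesion molecule of epithelium at large, ranged over 311 to 484 CPM (median 369.9) in the isthmus and 169 to 262 CPM (median 220.1) in the ampulla (0.76 ± 0.06, adjusted p = 3.87e-09). PAX8, the lineage factor of secretory cells, did not pass the test, with medians of 114 and 119.6 CPM (-0.10 ± 0.06, adjusted p = 0.19). In the epithelial identity list 4 of 11 were higher in the isthmus, led by the tight junction genes CLDN4 (1.96 ± 0.18) and OCLN (0.61 ± 0.08), and KRT5, a basal keratin, fell by 0.76 ± 0.13. KRT8, a keratin of simple epithelia, did not pass the test (-0.14 ± 0.10, adjusted p = 0.251).

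OVGP1, the oviduct glycoprotein and the best known product of these secretory cells, was not called (-0.27 ± 0.58, adjusted p = 0.736). It ranged over 37.6 to 18802 CPM (median 9852) in the isthmus and 2806 to 36688 CPM (median 7805) in the ampulla and was higher in the isthmus of 9 animals. Its lowest values came from 2 libraries. The isthmus held 97.5 CPM in heifer C and 37.6 CPM in non-lactating cow C, against 3133 to 18802 CPM in the other 12 animals. Heifer C, non-lactating cow C and heifer A were also farthest along PC1 (62.9, 58.9 and 53.3). MUC16 in their isthmus stood at 801, 1322 and 1508 CPM where the other 11 isthmus libraries held 3751 to 9879 CPM. C3 was lowest in the same 3 isthmus libraries, at 10.3, 17.0 and 14.8 CPM. These animals were picked out after their values were seen, and no test was made of them.

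**Figure D3:**
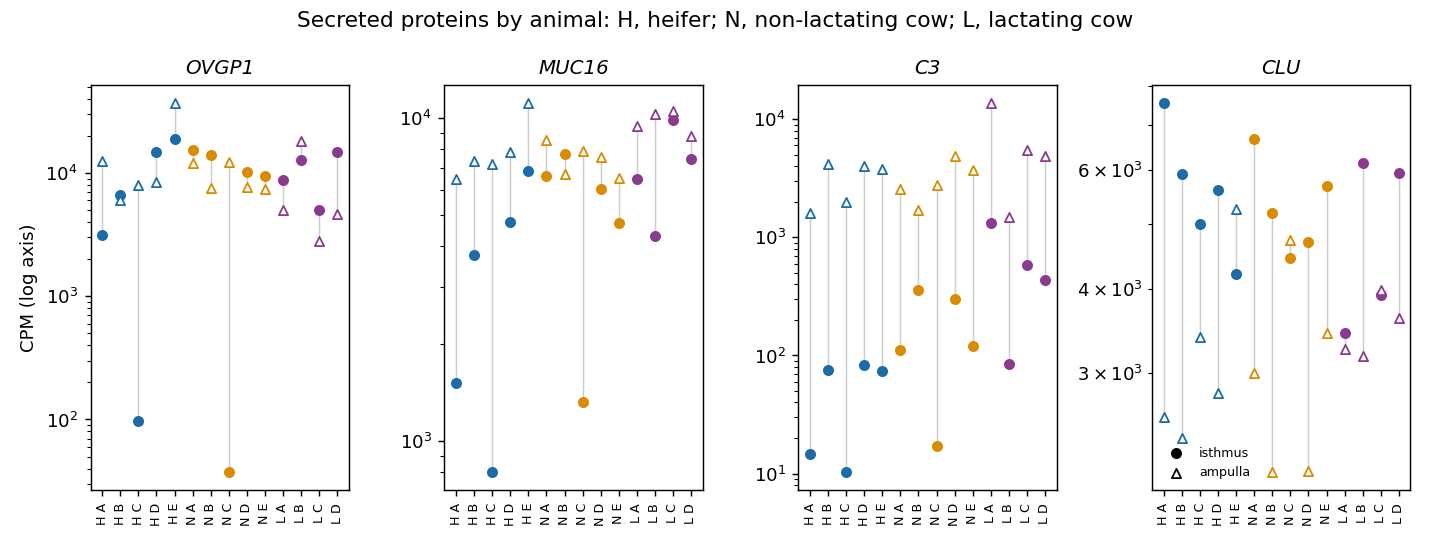
CPM on a log axis of 4 secreted proteins in the isthmus (filled circles) and ampulla (open triangles) of each animal, with heifers (H), non-lactating cows (N) and lactating cows (L) along the x axis. OVGP1 is at or above 2806 CPM in every library but the isthmus of heifer C and non-lactating cow C. C3 is higher in the ampulla of every animal, as its choice as a leading gene required.

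Markers of cells other than epithelium were present at varied levels, and the mesothelial and endothelial lists moved with the region. All 4 tested mesothelial markers were higher in the ampulla, against 22.8% of all genes (median log2 fold change -2.17). Their summed level was 47.3 to 471 CPM in the isthmus and 631 to 1249.5 CPM in the ampulla. WT1, a zinc finger factor of the mesothelium that is also expressed in Müllerian tissue, made up most of that sum, with 26.6 to 295 CPM (median 133) in the isthmus and 451 to 631 CPM (median 530.4) in the ampulla and no overlap (-2.20 ± 0.24, adjusted p = 1.79e-07). UPK1B, a uroplakin, and MSLN, mesothelin, fell by 3.54 ± 0.18 and 2.14 ± 0.37. CALB2, a defining mesothelial marker, was at 0 in all ampulla libraries and BNC1 did not exceed 1.58 CPM. Of 5 tested endothelial markers 4 were higher in the ampulla, against 22.8% of all genes. The summed level of this list was 17.8 to 126 CPM in the isthmus and 184 to 421 CPM in the ampulla. Most of it was KDR, the receptor of vascular endothelial growth factor, with 3.74 to 90.1 CPM (median 24.2) in the isthmus and 99.2 to 349 CPM (median 184) in the ampulla (-2.73 ± 0.20, adjusted p = 1.06e-09), and EMCN, endomucin, fell by 4.06 ± 0.33. VWF did not pass the test (adjusted p = 0.192) and CLDN5 and ESAM were at 0 in the ampulla. The part of these cells in the regional differences was not tested.

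In the smooth muscle list only MYH11, the smooth muscle myosin heavy chain, was higher in the isthmus, with 2.82 to 74.6 CPM (median 24.7) in the isthmus and 0 to 2.76 CPM (median 0.999) in the ampulla (4.83 ± 0.38, adjusted p = 2.14e-09). ACTA2, smooth muscle actin, did not pass the test (-0.34 ± 0.23, adjusted p = 0.232), DES (desmin) and SMTN (smoothelin) fell by 1.28 ± 0.35 and 1.98 ± 0.31, and CNN1, TAGLN and ACTG2 stayed at or below 1.39 CPM in all 28 libraries. The summed level of the list was 42.4 to 112 CPM in the isthmus and 42.7 to 137 CPM in the ampulla, which overlapped between regions. Among the fibroblast genes COL6A3, a collagen VI chain, was higher (0.86 ± 0.18) and COL1A2, a collagen I chain, lower (-0.61 ± 0.18) in the isthmus. LUM and DCN, defining proteoglycans of stroma, were in too few libraries to test, with medians of 12.7 and 2.13 CPM in the isthmus and 0 in the ampulla. LUM reached 297 CPM in the isthmus of lactating cow A. COL1A1, COL6A1, COL6A2, PDGFRA and PDGFRB, also untested, were highest in the ampulla of lactating cow D, with COL1A1 at 52.1 CPM. The remaining untested members, COL5A1 and TCF21, were highest in an isthmus library, as LUM and DCN were. The summed level of the fibroblast list reached 420 CPM in the isthmus and 376 CPM in the ampulla, and its ranges overlapped between regions. Lymphocyte genes were mixed, with LCK (0.78 ± 0.22) and ZAP70 (1.10 ± 0.38), both of T cell receptor signalling, higher and CD4, the helper T cell coreceptor, lower in the isthmus (-2.21 ± 0.34). ZAP70 lost its call in 3 of 22 alternatives (0.00232 to 0.193) and LCK in 1 of 23, after thinning the counts to the smallest library (adjusted p = 0.0558). None of 8 macrophage markers was called, against 46.9% of all genes. KIT, a receptor of mast cells and other cells, fell by 1.3 ± 0.19, but the mast cell protease CPA3 had no count in the isthmus and 2 in the ampulla. Haemoglobin HBB and HBA had no count in any of the 28 libraries.

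Of 21 tested Müllerian duct factors 7 were higher in the isthmus and 10 in the ampulla, against 24.1% and 22.8% of all genes. Besides GATA6 and WT1, TBX3, a T-box repressor, was higher in the ampulla, with 1.1 to 19.3 CPM (median 7.93) in the isthmus and 23.5 to 71.8 CPM (median 38.9) in the ampulla (-2.39 ± 0.28, adjusted p = 5.34e-07), and besides MSX1, EYA1, a transcriptional coactivator, was higher in the isthmus (1.61 ± 0.50). HOX genes, which set position along the body axis, differed in part. Of 14 tested, 6 were higher in the isthmus and 3 in the ampulla, against 24.1% and 22.8% of all genes. HOXB6 ranged over 88.8 to 361 CPM (median 117) in the isthmus and 3.41 to 31.5 CPM (median 16.4) in the ampulla, a log2 fold change of 2.98 ± 0.16 (adjusted p = 7.02e-12), without overlap. The changes in HOXA2 and HOXB7 were smaller, at 1.43 ± 0.35 and 1.14 ± 0.30. HOXD4 showed 0 to 3.62 CPM (median 0.377) in the isthmus and 2.93 to 24.7 CPM (median 9.43) in the ampulla (-3.89 ± 0.37, adjusted p = 3.69e-08) and HOXD3 0 to 3.62 CPM (median 0.855) in the isthmus and 3.62 to 22.7 CPM (median 9.5) in the ampulla (-3.52 ± 0.35, adjusted p = 5.73e-08), both higher in the ampulla of all 14 animals. HOXA6 also fell, by 0.91 ± 0.11. The posterior members HOXA9, HOXA10, HOXA11 and HOXA13 were too low to test, with 1 to 13 counts in the 14 isthmus libraries together and 3 to 12 in the 14 ampulla libraries.

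Of 23 tested WNT genes 14 were higher in the isthmus and 6 in the ampulla, against 24.1% and 22.8% of all genes, and 3 were not called (median log2 fold change 0.69). LGR5, the R-spondin receptor known from epithelial stem cells, ranged over 344 to 1180.1 CPM (median 599.7) in the isthmus and 13.4 to 70.8 CPM (median 36.4) in the ampulla, a log2 fold change of 4.23 ± 0.19 (adjusted p = 6.72e-13). It was higher in the isthmus by more than the spread of either region. SFRP2, a secreted WNT inhibitor, showed 7.65 to 37.9 CPM (median 13.5) in the isthmus and 0 to 1.35 CPM (median 0) in the ampulla (6.17 ± 0.39, adjusted p = 1.08e-10). On the other side, the ligand WNT5B (-2.18 ± 0.32) and the secreted DKK3 (-1.44 ± 0.38) were lower in the isthmus.

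In the hedgehog, Notch and FGF list 9 of 22 were higher in the isthmus and 7 in the ampulla (median log2 fold change 0.09). The shares of all genes were 24.1% and 22.8%. The hedgehog ligand IHH showed 13.5 to 55.7 CPM (median 33.9) in the isthmus and 0 to 2.55 CPM (median 0) in the ampulla, a log2 fold change of 6.73 ± 0.36 (adjusted p = 1.04e-11), and PTCH1, the receptor that is also a hedgehog target, 96.8 to 183 CPM (median 132) in the isthmus and 41.6 to 73.1 CPM (median 57.1) in the ampulla (1.16 ± 0.07, adjusted p = 1.16e-10). Both were without overlap. SMO, the signal transducer below PTCH1, and GLI2, a transcription factor of the pathway, were lower in the isthmus (-0.43 ± 0.10 and -1.84 ± 0.36). In the Notch pathway the target HEY1 was higher in the isthmus, with 26.7 to 67.8 CPM (median 46.3) in the isthmus and 2.41 to 12.2 CPM (median 6.77) in the ampulla (2.68 ± 0.21), whereas the ligand JAG1 and the target HES1 fell by 0.72 ± 0.09 and 0.84 ± 0.13. Of the FGF receptors FGFR1 showed 52.8 to 132 CPM (median 79.3) in the isthmus and 1.94 to 24 CPM (median 10.2) in the ampulla (2.81 ± 0.19, adjusted p = 2.97e-10) and FGFR2 rose by 0.98 ± 0.10, while SPRY4, a feedback inhibitor, fell by 1.49 ± 0.31.

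Of 20 tested TGF-beta and BMP genes 8 were higher and 8 lower in the isthmus, against 24.1% and 22.8% of all genes. The inhibitors BAMBI (1.81 ± 0.23) and SMAD7 (1.61 ± 0.34) were higher in the isthmus, and the BMP target genes ID2 (-1.14 ± 0.11) and ID3 (-2.04 ± 0.27) and the activin binding protein FSTL3 (-1.47 ± 0.24) were lower. Axon guidance families, which steer cell contacts in many epithelia, had 17 of 33 higher in the isthmus and 9 lower (median log2 fold change 0.36). These counts too stand against 24.1% and 22.8% of all genes. SEMA5A (12.6 to 149 CPM in the isthmus, 0 to 3.86 CPM in the ampulla, 4.67 ± 0.32) and SEMA6A (68.9 to 288 CPM in the isthmus, 7.85 to 25.2 CPM in the ampulla, 3.57 ± 0.15) led the isthmus without overlap. SLIT3, a repulsive ligand, showed 0.220 to 8.89 CPM (median 3.03) in the isthmus and 22.6 to 54.9 CPM (median 41.1) in the ampulla (-3.71 ± 0.24) and SEMA3E, a secreted semaphorin, 0.660 to 4.57 CPM (median 1.98) in the isthmus and 8.26 to 21.2 CPM (median 10.3) in the ampulla (-2.44 ± 0.24), both with every ampulla library above every isthmus library.

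**Figure D4:**
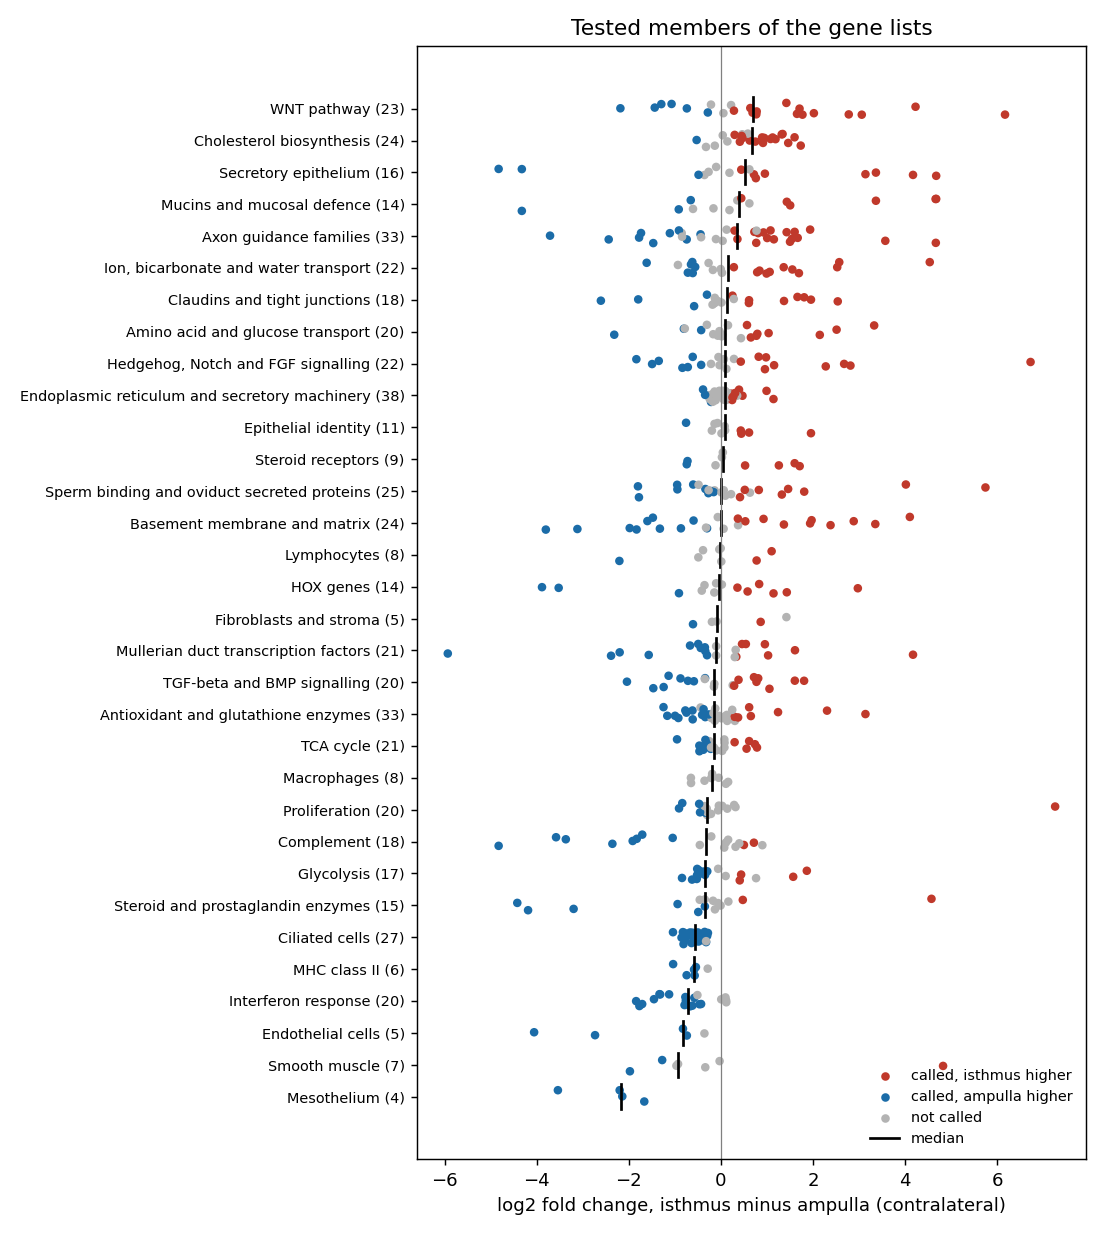
Log2 fold change, isthmus minus ampulla, of each tested member of the gene lists with at least 4 tested members (number in parentheses), ordered by the list's median (black bar), with red points called higher in the isthmus, blue points called higher in the ampulla and grey points not called. WNT and cholesterol genes lie mostly right of 0, and ciliated cell, interferon and mesothelial genes mostly left.

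The nuclear receptors of progesterone and oestrogen, through which the cycle acts on the oviduct, were higher in the isthmus. PGR, the progesterone receptor, ranged over 52.8 to 183 CPM (median 67.4) in the isthmus and 17.9 to 58.6 CPM (median 31.6) in the ampulla, a log2 fold change of 1.26 ± 0.13 (adjusted p = 1.44e-07), with slight overlap. ESR2, oestrogen receptor beta, showed 42.1 to 122 CPM (median 69.9) in the isthmus and 14 to 39.7 CPM (median 23.4) in the ampulla (1.60 ± 0.12, adjusted p = 1.25e-09) and no overlap, and ESR1, oestrogen receptor alpha, rose by 0.53 ± 0.08 with overlapping ranges. The membrane progestin receptors moved apart, PAQR5 higher (1.71 ± 0.44) and PAQR8 lower (-0.73 ± 0.11), and NR3C1, the glucocorticoid receptor, was lower (-0.74 ± 0.12). In all, 4 of 9 tested receptor genes were higher in the isthmus and 2 in the ampulla, against 24.1% and 22.8% of all genes.

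Prostaglandin enzymes differed strongly and in opposite directions. AKR1B1, an aldo-keto reductase with prostaglandin F synthase activity, ranged over 32.9 to 110.2 CPM (median 63.3) in the isthmus and 0 to 7.62 CPM (median 1.83) in the ampulla, a log2 fold change of 4.58 ± 0.28 (adjusted p = 7.03e-11). PTGDS, prostaglandin D synthase, showed 0 to 14.8 CPM (median 4.2) in the isthmus and 23.2 to 299 CPM (median 78) in the ampulla (-4.42 ± 0.25, adjusted p = 2.58e-11), and HPGD, which inactivates prostaglandins, 0 to 9.06 CPM (median 0.511) in the isthmus and 4.96 to 29.6 CPM (median 16) in the ampulla (-4.19 ± 0.48, adjusted p = 4.98e-07). AKR1B1 was higher in the isthmus of all 14 animals. PTGDS and HPGD are leading genes of the ampulla, which were chosen for 1 sign in all 14 animals. PTGES2, a prostaglandin E synthase, rose by 0.48 ± 0.19 with an adjusted p of 0.0466, but it was not called in 14 of 22 alternatives, among them 10 of the 14 fits that left out an animal (0.0136 to 0.124 over the 22). Of 15 tested steroid and prostaglandin enzymes and receptors 2 were higher in the isthmus, 6 higher in the ampulla and 7 not called. The shares of all genes were 24.1% higher in the isthmus and 22.8% higher in the ampulla.

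Of 25 tested secreted and sperm-binding proteins 8 were higher in the isthmus and 9 in the ampulla, against 24.1% and 22.8% of all genes, and the median difference on the log2 scale was 0.01. The annexins, which have been described as sperm receptors of the bovine oviduct, were all higher in the ampulla, from ANXA4 (112 to 164 CPM in the isthmus, 202 to 372 CPM in the ampulla, -0.95 ± 0.06) and ANXA1 (-0.60 ± 0.06), both without overlap, to ANXA2 (-0.34 ± 0.10) and ANXA5 (-0.27 ± 0.06). CTGF, a matricellular growth factor, showed 25 to 408 CPM (median 163) in the isthmus and 0.583 to 9.31 CPM (median 1.89) in the ampulla, a log2 fold change of 5.75 ± 0.28 (adjusted p = 2.19e-12). Binding proteins of insulin-like growth factors differed by member. IGFBP3 (38.7 to 188 CPM in the isthmus, 0.601 to 24.7 CPM in the ampulla, 4.02 ± 0.36) was higher in the isthmus, and IGFBP5 (8.36 to 20.1 CPM in the isthmus, 34.5 to 72.8 CPM in the ampulla, -1.80 ± 0.12) and IGFBP6 (-1.78 ± 0.28) were higher in the ampulla. TIMP2, an inhibitor of matrix metalloproteases, rose by 1.46 ± 0.18 in the isthmus.

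Among mucins and mucosal defence genes 6 of 14 were higher in the isthmus and 3 in the ampulla, against 24.1% and 22.8% of all genes. MUC15, a membrane mucin, showed 13.9 to 32 CPM (median 22.1) in the isthmus and 0 to 2.07 CPM (median 0.815) in the ampulla (4.66 ± 0.29, adjusted p = 7.97e-11), without overlap, and MUC16 was lower in the isthmus of 13 animals. Of 18 tested complement genes 2 were higher in the isthmus and 8 in the ampulla, against 24.1% and 22.8% of all genes. C1R and C1S, the proteases of the first complement complex, fell by 3.58 ± 0.29 and 2.36 ± 0.22. CLU and CD59, both inhibitors of the terminal complex, were the members higher in the isthmus (0.72 ± 0.14 and 0.50 ± 0.15). Without the 3 animals of the shallowest isthmus libraries CD59 was no longer called (adjusted p = 0.0558, and 0.00267 to 0.0558 over the alternatives other than a minimum fold).

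Interferon response genes were higher in the ampulla in 15 of 20 cases, against 22.8% of all genes, and higher in the isthmus in none (median log2 fold change -0.71). Within metabolic groups 12 were called higher in the ampulla in heifers (median -1.21), 4 in non-lactating cows (-0.59) and 3 in lactating cows (-0.56). The shares of all genes there were 14.7%, 11.3% and 7.18%, and a difference between groups was not tested for the list. IFIT1, which binds foreign RNA, showed 0.951 to 19 CPM (median 3.29) in the isthmus and 2.01 to 34.3 CPM (median 15.5) in the ampulla (-1.84 ± 0.32, adjusted p = 7.83e-05), and CXCL10, a chemokine induced by interferon, 0 to 44 CPM (median 1.48) in the isthmus and 0.169 to 169.7 CPM (median 5.27) in the ampulla (-1.77 ± 0.28, adjusted p = 2.18e-05). The ranges overlapped, and the list's summed level was 441 to 1227 CPM in the isthmus and 469.5 to 4814 CPM in the ampulla, with the highest value in the ampulla of heifer E. Without heifer E, 13 members were still called higher in the ampulla and the median was -0.59. MHC class II genes, which present antigen, had 5 of 6 higher in the ampulla, among them the class II transactivator CIITA (-1.04 ± 0.18) and BOLA-DQA2 (-0.74 ± 0.30), which has near copies in the cattle genome and is therefore uncertain. Within metabolic groups 3 of the 6 were called higher in the ampulla in heifers, 0 in non-lactating cows and 1 in lactating cows. The shares of all genes were again 14.7%, 11.3% and 7.18%. Without the animal block 0 of the 6 were called in either direction, and CIITA was among those lost (adjusted p = 0.0668 in edgeR). BOLA-DQA2 lost its call in 11 of 22 alternatives, 7 of them fits without an animal (0.0078 to 0.226 over the 22). The macrophage sum, 30.2 to 178 CPM in the isthmus and 31.2 to 423 CPM in the ampulla, and the lymphocyte sum, 21.1 to 162 CPM in the isthmus and 22.1 to 205 CPM in the ampulla, overlapped between regions and were each highest in the ampulla of lactating cow A. Their part in the immune differences was not tested.

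Of 22 tested ion and water transport genes 11 were higher in the isthmus and 6 in the ampulla, against 24.1% and 22.8% of all genes. CFTR, the chloride and bicarbonate channel, ranged over 40.7 to 201 CPM (median 82.8) in the isthmus and 1.52 to 12.9 CPM (median 3.83) in the ampulla, a log2 fold change of 4.54 ± 0.17 (adjusted p = 6.43e-14). SLC12A2, which loads chloride into secretory cells, showed 46.5 to 154 CPM (median 74.6) in the isthmus and 5.08 to 27.6 CPM (median 14) in the ampulla (2.57 ± 0.17), without overlap. ANO1, a chloride channel gated by calcium, went the other way, with 6.16 to 63.1 CPM (median 36) in the isthmus and 54.6 to 158 CPM (median 99.6) in the ampulla (-1.61 ± 0.23, adjusted p = 8.15e-06). The water and glycerol channel AQP9 showed 494 to 1266 CPM (median 853) in the isthmus and 199 to 485 CPM (median 299.6) in the ampulla (1.55 ± 0.11) without overlap, and AQP4 and AQP5 rose by 0.79 ± 0.12 and 0.99 ± 0.13. SCNN1G, a subunit of the epithelial sodium channel, fell by 0.72 ± 0.25, but it was not called without the animal block (adjusted p = 0.0738) or without lactating cow A (adjusted p = 0.0552).

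Amino acid and glucose transporters had 8 of 20 higher in the isthmus and 3 in the ampulla, against 24.1% and 22.8% of all genes. The glutamate transporter SLC1A1 (59.6 to 231 CPM in the isthmus, 2.94 to 39.9 CPM in the ampulla, 3.33 ± 0.27) and the neutral amino acid transporter SLC1A4 (208 to 792 CPM in the isthmus, 38.5 to 126 CPM in the ampulla, 2.51 ± 0.09) led the isthmus, both without overlap. SLC2A1, the basal glucose transporter, and SLC16A7, a transporter of lactate and pyruvate, were lower there (-0.80 ± 0.11 and -2.32 ± 0.40). Glycolytic genes were higher in the ampulla in 10 of 17 cases, against 22.8% of all genes, including LDHA (-0.84 ± 0.19) and ALDOC (-0.63 ± 0.17). They were higher in the isthmus in 4, a share near the 24.1% of all genes. These 4 included HK2 (1.87 ± 0.37), the inducible hexokinase, and PDK4 (1.57 ± 0.15), which keeps pyruvate out of the mitochondrial cycle. Of 21 TCA cycle genes 5 were higher in the isthmus, a share near the 24.1% of all genes, and 8 lower, against 22.8%. OGDH (0.78 ± 0.12) and PCK2 (0.74 ± 0.18) were higher and PC (-0.95 ± 0.10), pyruvate carboxylase, lower.

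Cholesterol biosynthesis genes were higher in the isthmus in 17 of 24 cases and higher in the ampulla in 1, against 24.1% and 22.8% of all genes. The median log2 fold change of the list was 0.69. CYP51A1, a sterol demethylase, ranged over 53.3 to 220.1 CPM (median 108) in the isthmus and 19.3 to 53.3 CPM (median 32.6) in the ampulla (1.73 ± 0.14, adjusted p = 5.22e-09), and INSIG1, a feedback regulator of sterol synthesis, over 11.2 to 51 CPM (median 21.2) in the isthmus and 4.03 to 12.3 CPM (median 8.28) in the ampulla (1.60 ± 0.19). The isthmus was higher for both in all 14 animals. DHCR7, which makes cholesterol in the last step, fell by 0.53 ± 0.13. Without heifer E, 19 members were higher in the isthmus and the median was 0.76.

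Of 33 tested antioxidant genes 7 were higher in the isthmus and 13 in the ampulla, against 24.1% and 22.8% of all genes. The secreted glutathione peroxidase GPX3 showed 46.3 to 494 CPM (median 166) in the isthmus and 9.24 to 30.8 CPM (median 17.6) in the ampulla (3.14 ± 0.27, adjusted p = 8.61e-09) and the glutathione transferase GSTA2, which has close family members, 4.34 to 35.9 CPM (median 15.7) in the isthmus and 0 to 10.1 CPM (median 3.21) in the ampulla (2.31 ± 0.32). The intracellular peroxidases GPX1 and GPX2 and the haem oxygenase HMOX1 fell by 1.0 ± 0.12, 1.16 ± 0.12 and 1.25 ± 0.21. Of 38 tested genes of the endoplasmic reticulum and secretory machinery 25 were not called. In the isthmus 10 were higher, a share near the 24.1% of all genes, and 3 were lower, against 22.8%. CREB3L1, a transcription factor of secretory cells, and SEC11C, of the signal peptidase, rose by 1.14 ± 0.12 and 0.99 ± 0.10, XBP1 by 0.27 ± 0.10, while SEC24D and SSR4 fell by 0.39 ± 0.08 and 0.34 ± 0.14. SSR4 was not called in 10 of 23 alternatives (0.0104 to 0.104) and XBP1 in 9 of 23 (0.0128 to 0.0852), in each case 7 of them fits without an animal.

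Of 24 tested genes of basement membrane and matrix 10 were higher in the isthmus and 10 in the ampulla, around a median of -0.0044. Of all genes 24.1% and 22.8% were. FBLN1 (69.1 to 276 CPM in the isthmus, 11 to 42.7 CPM in the ampulla, 3.35 ± 0.19), FBLN5 (4.11 ± 0.40) and FBN1 (105 to 595 CPM in the isthmus, 13.2 to 75.7 CPM in the ampulla, 2.89 ± 0.26), of elastic fibres, were higher in the isthmus. NID1, which ties laminin to collagen IV, showed 0.374 to 20.9 CPM (median 7.47) in the isthmus and 45.7 to 110.1 CPM (median 54.6) in the ampulla (-3.12 ± 0.29, adjusted p = 2.76e-08) and MMP7, an epithelial metalloprotease, 0 to 5.06 CPM (median 1.83) in the isthmus and 15.7 to 56.3 CPM (median 22.8) in the ampulla (-3.80 ± 0.28), both higher in the ampulla without overlap. Of 18 tight junction genes 8 were higher in the isthmus and 4 in the ampulla, against 24.1% and 22.8% of all genes. CLDN8 (8.58 to 54.5 CPM in the isthmus, 0.169 to 11.7 CPM in the ampulla, 2.54 ± 0.26) and CLDN4 (31.4 to 58.8 CPM in the isthmus, 3.38 to 26.4 CPM in the ampulla) marked the isthmus, and CLDN11 (0.717 to 10.6 CPM in the isthmus, 4.87 to 62.5 CPM in the ampulla, -2.61 ± 0.33) and CLDN9 (-1.80 ± 0.41) the ampulla.

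The regional difference was present in each metabolic group. In the joint fit 4207 genes (30.5%) were called in heifers, 2175 (15.8%) higher in the isthmus and 2032 (14.7%) in the ampulla. In non-lactating cows 3313 (24.0%) were called, 1756 (12.7%) and 1557 (11.3%). In lactating cows 2265 (16.4%) were called, 1274 (9.24%) and 991 (7.18%). These counts rest on 5, 5 and 4 pairs and are not a test of a difference between groups. The count for lactating cows fell to 1482 without lactating cow A and to 1502 without lactating cow C, and that for heifers to 2493 without the animals of the 3 shallowest isthmus libraries. In all 3 groups 1764 genes were called in the same direction, 999 higher in the isthmus and 765 in the ampulla, which is 41.9% of the calls in heifers, 53.2% of those in non-lactating cows and 77.9% of those in lactating cows. A single gene was called in opposite directions in different groups. The 30 leading genes were called in all 3 groups, but they were chosen from the same libraries for a large change of 1 sign in all 14 animals, so this is a description and no support. The change was largest in size in heifers for 20 of them and in non-lactating and lactating cows for 5 each. C3, for one, was at -6.22 ± 0.53 in heifers, -4.55 ± 0.51 in non-lactating cows and -3.54 ± 0.51 in lactating cows, and this order was not tested beyond the interaction.

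The test of the difference itself, a region by metabolic group interaction in edgeR, called no gene (0%), with a smallest adjusted p of 0.999. Before adjustment, 515 genes had a p below 0.05. DESeq2 called 2 genes, and edgeR without the filter on low counts called 135. The 3 genes with the smallest p, among symbols not beginning with LOC, were HOXA5, ADAMTSL1 and HSPA1A. HOXA5 had log2 fold changes of 0.41 ± 0.18 in heifers, -0.57 ± 0.18 in non-lactating cows and -1.05 ± 0.21 in lactating cows. ADAMTSL1, a secreted matrix protein, had -1.01 ± 0.39 in heifers, -0.19 ± 0.39 in non-lactating cows and 1.98 ± 0.45 in lactating cows. HSPA1A, an inducible heat shock protein, had -1.72 ± 0.16 in heifers, -1.02 ± 0.16 in non-lactating cows and -0.60 ± 0.18 in lactating cows, and it was lower in the isthmus of all 14 animals (-1.15 ± 0.14, adjusted p = 9.64e-07). None of the 3 interactions passed the adjustment in this fit. HOXA5 and ADAMTSL1 were the 2 genes called by DESeq2 (adjusted p = 0.0431 each), and without the filter ADAMTSL1 (0.00062) and HSPA1A (0.000195) were called. Over all alternatives the adjusted p reached 1 for each of the 3.

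**Figure D5:**
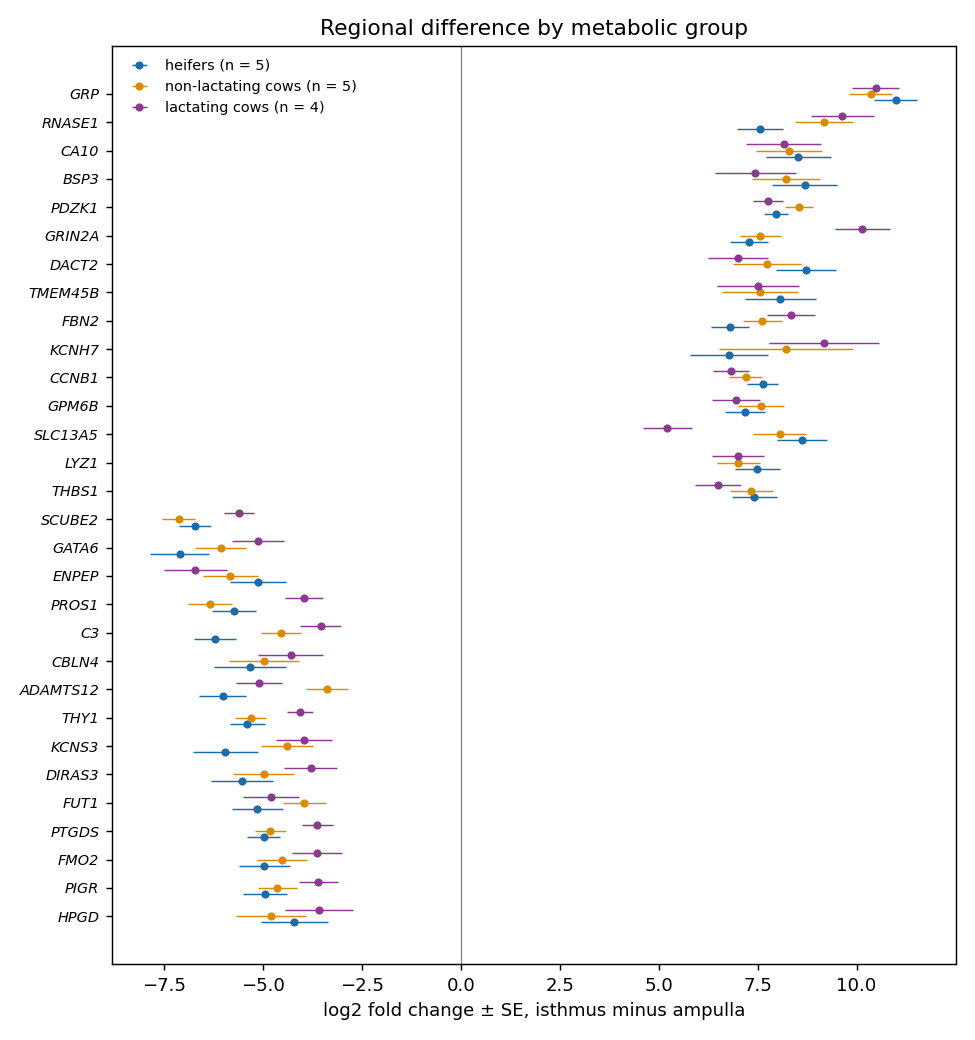
Log2 fold change ± SE, isthmus minus ampulla, of the 15 leading genes of the isthmus and the 15 of the ampulla within heifers, non-lactating cows and lactating cows (colours), from the joint fit. The genes were chosen for 1 sign in all animals, which fixes the side of 0, and the sizes differ between groups. For C3 and SLC13A5 the lactating cows lie nearest to 0.

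The same contrast was made on the side of the CL, from the other libraries of the same animals. In the fit of 56 libraries 7589 genes were called between regions on the contralateral and 7499 on the ipsilateral side. Leading genes differed between regions there as well. GRP, PDZK1, SCUBE2 and GATA6, for example, had ipsilateral log2 fold changes of 11.93 ± 0.31, 9.02 ± 0.25, -6.08 ± 0.27 and -5.05 ± 0.39. A region by side interaction over all 56 libraries called 1346 of 14714 genes (9.15%), 530 (3.60%) with a more positive difference on the contralateral side and 816 (5.55%) with a more negative one. This test treats the libraries of an animal as independent beyond a shared level. With 1 value per animal, in the 10 animals left after setting aside 4 (2 whose ipsilateral ampulla columns carry each other's tag across groups, and heifer B and non-lactating cow B, whose match was doubted from earlier results of these data and was not tested here), limma called 0 genes, with a smallest adjusted p of 0.118 and 2590 genes below 0.05 before adjustment. That alternative also leaves out 4 animals and changes the tool, and which of these choices lowers the count was not tested. Leaving out only the 4 ipsilateral ampulla libraries in edgeR gave 957 calls. The count in edgeR was 401 without the animals of the 3 shallowest isthmus libraries, 845 without heifer A and 872 without heifer E. Genes among those with the largest interaction in edgeR are given as values. LTF, the iron-binding lactoferrin, had a mean of 222 ± 287 CPM (SD, n = 14) in the contralateral and 1659.5 ± 1267 CPM in the ipsilateral isthmus, and 256 ± 672 and 105 ± 98.1 CPM in the respective ampullae, and contralaterally it was not called (0.62 ± 0.27, adjusted p = 0.0648), although it was without lactating cow A (0.0162) or non-lactating cow C (0.0286). SUSD2, a membrane protein, had 10.2 ± 5.34 and 58.4 ± 36.7 CPM in the isthmus and 1.49 ± 1.31 and 1.06 ± 0.727 CPM in the ampulla. GADD45G, of a growth arrest family, had 1.17 ± 0.896 and 14.5 ± 12.9 CPM in the isthmus and 4.13 ± 2.66 and 7.10 ± 4.64 CPM in the ampulla. BSP3 had 8.37 ± 4.26 and 12.4 ± 6.90 CPM in the isthmus, and no count in the contralateral against 0.453 ± 0.527 CPM in the ipsilateral ampulla.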

How the data were processed

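Mucosal epithelium of the isthmus and ampulla was scraped from both oviducts of each animal, RNA was made into stranded libraries and sequenced as single-end reads, and per the labels and methods the authors trimmed the reads, aligned them with TopHat2 2.0.13 to Btau_4.6.1 and deposited raw counts per gene from HTSeq 0.6.1 (stranded, intersection-strict). Reads that map to several places were not counted, which lowers genes with near copies. The 5 summary lines of the counter were left out, and reads on genes were 8.66% to 12.7% of each library's total with those lines. The depth of 1901454 to 6736441 counts limits genes of few counts. Intervals and floors cover counting error only.

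The 28 contralateral libraries were fitted with edgeR 4.0.16 (R 4.3.3; TMM, filterByExpr with a minimum count of 10, quasi-likelihood test, Benjamini-Hochberg threshold of 0.05) with the animal as a block. The pairing comes from the animal tags, which name the same animal in both regions. Deviations of the 2 libraries of an animal correlated with a median r of 0.21 (0.0758 to 0.508, 12 of 14 above 0.1, over 10644 genes), against -0.015 between animals. Only 10 of the 14 isthmus libraries correlated best with the ampulla library of their own animal. No pair of libraries within a group differed by less than the sampling noise. Region effects per metabolic group came from 1 joint fit. Log2 CPM used a prior count of 2. The procedure was tested on simulated data.

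The members and gene lists were chosen with earlier results of these data known. Named genes were the 15 of largest change in each direction (mean of at least 5 CPM, 1 sign in all 14 animals, symbol not beginning with LOC), the 2 largest rises and falls of each list and members whose defining role the text needs, the 5 largest called interactions (the 3 of smallest p where none was called), and the 3 most abundant called genes of each direction. Symbols beginning with LOC were also left out when the interaction genes and the most abundant genes were chosen. Of 828 listed symbols 776 were in the table and 548 were tested. Alternatives were RLE factors, no filter, DESeq2 1.42.0, no block, limma-voom (limma 3.58.1), robust dispersions, thinned counts, a minimum fold of 1.5 (glmTreat), all 56 libraries and each animal left out. Leaving out the animals of the 3 shallowest isthmus libraries was added after seeing the data. No sequences or coordinates are given, and some genes that this rule names are not reported here.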

Additional observations from a re-analysis of the deposited data

Results flagged for a closer look

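The paired log2 CPM difference of 176 genes was examined in each metabolic group for an animal far from the others of its group by Dixon's test. ZAP70 and LRP2 were not among the 176. Of 528 groups of values 44 held such an animal, and chance gives about 1 in 20, or 26.4 of these. The values are isthmus minus ampulla. Heifer E stood apart for AKR1B1 at 2.51, ALDOC at -1.41, CCDC39 at 2.89, CLDN4 at 0.63, CLDN8 at 5.43, DNAI1 at -1.09, HYDIN at 0.38, KRT8 at -1.16, PAX8 at -0.47, PROS1 at -2.97, TIMP2 at -0.65 and XIST at 1.84. Non-lactating cow C stood apart for EEF1A1 at -1.05, GADD45G at -3.24, GLI2 at -5.07, MUC16 at -2.58, OVGP1 at -8.33, PCK2 at 1.37 and SLC13A5 at 7.15. Lactating cow C stood apart for CFTR at 5.05, FBLN5 at 4.28, FBN1 at 5.37, GRP at 11, SLIT3 at -4.76 and UPK1B at -4.30. Lactating cow B stood apart for ACTA2 at 0.55, ANXA2 at 0.50, AQP4 at 0.23, CLDN4 at 3.87 and KIT at -1.65. Non-lactating cow E stood apart for CA10 at 3.36, CCNB1 at 9.0, HYDIN at -0.010 and TPX2 at -0.69. Lactating cow D stood apart for DHCR7 at -1.33, SLC12A2 at 0.74 and SYNE2 at 0.79. Heifer B stood apart for FBN2 at 4.08 and HOXA5 at 0.99. Non-lactating cow B stood apart for GRIN2A at 3.92 and SLC2A1 at -0.32. Heifer A stood apart for CD4 at -3.09. Heifer C stood apart for LTF at 3.21. Non-lactating cow A stood apart for SEMA3E at -3.21. The explanation of these values was not tested.

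The regional difference differed between the contralateral and the ipsilateral side, by the interaction in edgeR over 56 libraries, for ALDOC (-0.70), ANXA5 (-0.32), BSP3 (3.59), C1R (-2.12), C1S (-1.20), ESR1 (0.52), FBN1 (1.19), GADD45G (-2.70), KRT8 (-0.43), LTF (-3.50), OGDH (-0.70), PGR (0.84), SEC24D (-0.44), SEMA5A (2.62), SLC1A1 (1.12) and SUSD2 (-2.89), given as the contralateral minus the ipsilateral log2 fold change. With 1 value per animal, in 10 animals and with limma, none of these passed the adjustment, and the value for BSP3 was 0.25. In edgeR the BSP3 call was also lost after thinning the counts to the smallest library (adjusted p = 0.0736). It was lost as well without the animals of the 3 shallowest isthmus libraries (adjusted p = 0.107).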

How the results depend on the processing

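The 6467 genes called between regions ranged over 5993 to 6684 when each animal was left out. Without the animal block 6208 were called, and RLE factors, no filter, DESeq2, limma-voom, robust dispersions, thinned counts, all 56 libraries and leaving out the animals of the 3 shallowest isthmus libraries gave 5460 to 7589. With a minimum fold of 1.5 the count was 1877, since that alternative tests a larger difference. With each animal left out the counts ranged over 3172 to 4214 in heifers, 2290 to 3922 in non-lactating cows and 1482 to 2862 in lactating cows, with no call of the interaction with metabolic group in any of these fits and 845 to 1483 calls of the interaction with side. Without the animals of the 3 shallowest isthmus libraries heifers gave 2493 and the interaction with side 401. The interaction with metabolic group gave 135 without the filter and 2 with DESeq2, and that with side 0 with 1 value per animal. The cause of these shifts was not tested. Without the block the counts were 3827, 2895 and 1824 in the 3 metabolic groups, 0 and 1014 for the interactions. Of 167 named genes called, 122 kept direction and call under every alternative that tested them, 45 lost the call in at least 1 of 24, 44 of them under the minimum fold, and none reversed. LRP2, described below, was not among the 167, and its call was not examined under the alternatives. Without the block 8 of the 167 lost the call, and CCDC39, not called with it, was called (adjusted p = 0.0455). Genes of few counts were limited by depth.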

Other observations

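LRP2, NRCAM and NPPC, which belong to no list used above and were chosen after their values were seen, also set the regions apart. LRP2, the endocytic receptor megalin, ranged over 549 to 4683 CPM (median 1569.9) in the isthmus and 22.5 to 69.5 CPM (median 35.1) in the ampulla. No ampulla library reached the lowest isthmus library, and the log2 fold change was 5.47 ± 0.19 (adjusted p = 3.16e-14 in edgeR). NRCAM, a cell adhesion molecule known from neurons, ranged over 46.5 to 283 CPM in the isthmus and 0 to 8.61 CPM in the ampulla, a log2 fold change of 5.86 ± 0.36 (adjusted p = 6.71e-11). NPPC, the C-type natriuretic peptide that holds oocytes in meiotic arrest in the follicle, ranged over 4.57 to 43.3 CPM in the isthmus and 0 to 0.583 CPM in the ampulla. It was higher in the isthmus of all 14 animals, with a log2 fold change of 7.09 ± 0.39 (adjusted p = 1.14e-11).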
